A study of Mus musculus with 441 samples.

Results

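Dividing CD4 T cells were compared with regulatory T cells (Tregs) among single cells sorted from mouse pancreatic islets with the Ins tetramer. Both classes are the authors' annotation: 35 cells carried the class name Dividing CD4 T cell and 115 the name Treg cell, out of 257 cells in the Ins sort and 441 cells in the series. Islets were isolated after collagenase digestion, and single CD4 T cells specific for beta cells were sorted by FACS, that is, cells that bound a tetramer of MHC class II molecules carrying a peptide. The full-length SMART-Seq2 protocol was used. The other sort of the series used a HIP tetramer, and the labels spell out neither abbreviation. They give no strain, age, sex or treatment for the groups compared, and they name no animal, so each class counts as 1 sample: no test was possible, no p-value is given, and SDs and intervals describe spread and counting error between cells only. The classes were cut by the authors from the same expression values, so every difference below describes the classes and is no independent evidence about them.

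A T cell that divides passes through DNA synthesis, in which licensed origins fire and nucleotides are made in bulk, and then through mitosis, in which cyclin-dependent and Aurora kinases drive the spindle and the segregation of chromosomes. Genes of the first step are typically induced through E2F factors, and genes of the second through a later programme that acts on CHR elements and CCAAT boxes. Tregs, which depend on the transcription factor Foxp3, restrain other T cells, and in islets they restrain autoimmune attack on beta cells.

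Values are in TPM, the share of each gene's transcripts scaled to a total of 1000000 per cell, and a gene is called detected where a cell reaches 1 TPM. Since TPM holds no information on depth, the gene number of each cell was used in its place. It differed between the classes: the lowest, median and highest were 1622, 3610 and 5324 genes in dividing cells and 694, 2017 and 3399 in Tregs. Each comparison was therefore repeated in cells with 2500 or more genes, which kept 33 dividing cells (median 3619 genes) and 19 Tregs (median 2688). Since the medians still differed, a narrower range of 2500 to 3500 genes, with 12 dividing cells (median 3151) and the same 19 Tregs, was also used. Cell numbers fell into 3 Ins blocks of 96 consecutive numbers, whose nature the labels do not give, with 15, 10 and 10 dividing cells and 31, 40 and 44 Tregs. The labelled lineage was checked first. Cd3e was detected in 100% of dividing cells and 99.1% of Tregs, and Cd4 in 91.4% and 82.6%. Foxp3 was detected in 27 of 35 dividing cells (77.1%, exact interval 59.9% to 89.6%) and 94 of 115 Tregs (81.7%, 73.5% to 88.3%), against 16.0% of the 25 activated and 13.1% of the 61 T follicular helper cells of the same sort. The dividing class of this sort thus held Foxp3 at a share whose interval overlapped that of Tregs. These shares are of all cells and were not matched for gene number.

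The comparison covered 5301 genes that 25% or more of the cells in 1 of the classes expressed at 1 TPM. Of these, 815 (15.4%) had a mean TPM at least 2-fold higher in dividing cells and 808 (15.2%) a mean at least 2-fold lower. The median log2 ratio over all 5301 genes was -0.06. This balance depended on the scale. On mean log2(TPM + 1), where cells at 0 weigh more, 3296 genes were higher and 69 lower by the same fold, and the median of all genes moved to 1.31. The shares of cells show the same imbalance: 4853 of the 5301 genes were detected in a larger share of dividing cells than of Tregs and 435 in a smaller one. Genes higher in mean TPM were also found in more dividing cells (797 of 815), while of the 808 lower genes 512 were found in a larger share of dividing cells and 293 in a smaller one. In cells with 2500 or more genes, 1138 of 5523 genes (20.6%) were higher and 889 (16.1%) lower. Of these, 553 and 404 were among the genes called in all cells, and 674 of the 889 lower genes were then found in a smaller share of dividing cells.

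**Figure D1:**
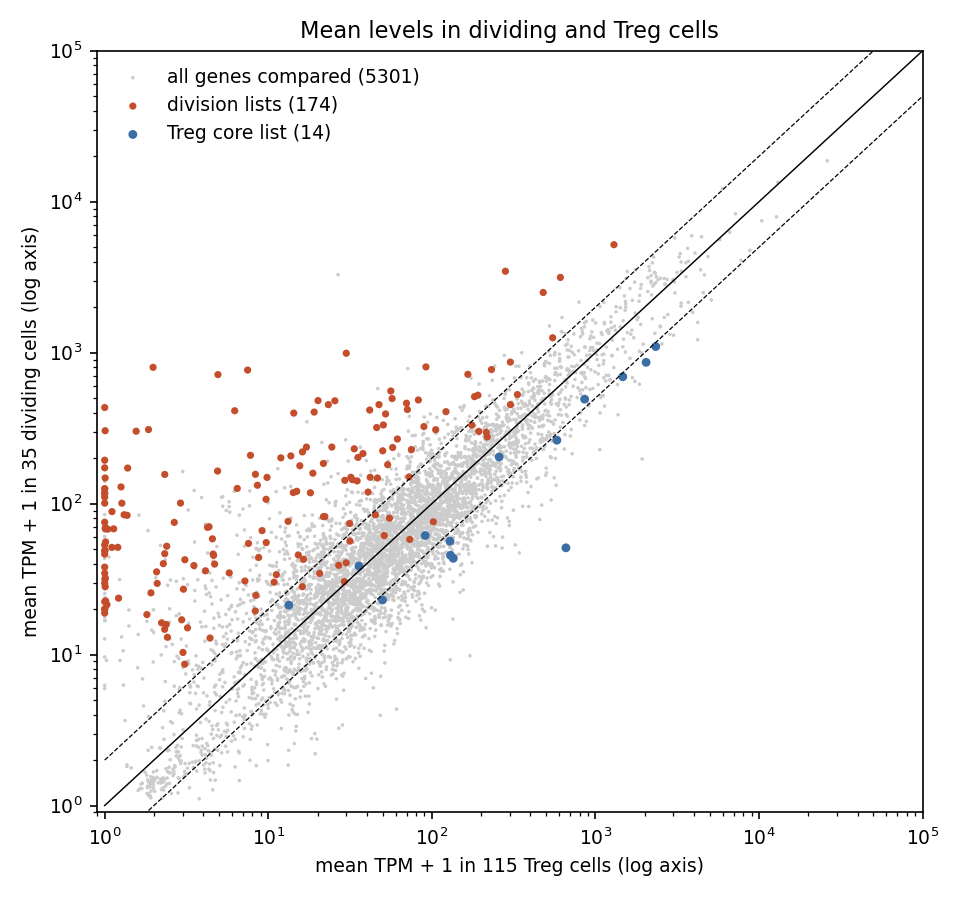
Mean TPM + 1 of each of 5301 genes in 115 Treg cells (horizontal, log axis) and 35 dividing cells (vertical, log axis). The solid line marks equal means and the dashed lines 2-fold. Most of the 174 division genes (orange) lie above the upper dashed line, many of them at or near 0 in Tregs, and 9 of the 14 Treg core genes (blue) lie below the lower one, with Itgae farthest from it.

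Genes of DNA replication and mitosis made up the clearest block on the higher side. Of 195 division genes in the table, from lists of replication, nucleotide, cyclin, spindle, kinetochore and chromatin genes, 174 passed the detection filter, and 157 of these were at least 2-fold higher in dividing cells, against 15.4% of all genes. None of the 174 was at least 2-fold lower by mean TPM. These genes took between 1.10% and 8.36% of TPM in dividing cells (median 4.37%) and between 0.312% and 3.30% in Tregs (median 0.747%), so the least loaded dividing cells lay below the most loaded Tregs. The count was 141 of 172 with 2500 or more genes (20.6% of all genes). The class is named for division, so these counts describe its name and are no finding about the cells.

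The promoters of these genes can be set beside their levels. RefSeq promoters (GRCm38.p6) were matched for 132 of the 157 higher division genes, and the 250 bases before each start were searched on both strands for E2F-type motifs (TTGGCGC or TTCGCGC or TTCCCGC or TTGCCGC), the CHR element (TTTGAA) and the CCAAT box (CCAAT). An E2F-type motif was present in 12 of 32 replication gene promoters (37.5%) and 12 of 65 mitotic gene promoters (18.5%), beside 16.4% of 4006 genes compared and 7.97% of all 27025 promoters in the table. The CHR element was present in 15.6% of the replication and 32.3% of the mitotic promoters, beside 11.8% of the genes compared and 16.3% of all promoters. The CCAAT box was present in 59.4% and 69.2%, beside 38.6% and 34.5%, and CHR and CCAAT together in 12.5% and 26.2%, beside 5.17% and 5.73%. Promoters of the 592 matched genes with lower means held them at 9.97% (E2F), 11.8% (CHR), 33.4% (CCAAT) and 4.73% (CHR with CCAAT). Matches are descriptions of letters, not of binding. The 150 bases before the start are shown, 5′ to 3′ on the gene's strand, for 2 replication genes (Mcm5, Asf1b) and 4 genes of chromosome condensation and mitosis, with motifs of any of the 3 kinds on either strand in capitals.
Mcm5: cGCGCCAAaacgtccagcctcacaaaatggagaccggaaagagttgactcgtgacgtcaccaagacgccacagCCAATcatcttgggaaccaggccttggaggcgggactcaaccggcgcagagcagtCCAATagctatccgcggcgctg
Asf1b: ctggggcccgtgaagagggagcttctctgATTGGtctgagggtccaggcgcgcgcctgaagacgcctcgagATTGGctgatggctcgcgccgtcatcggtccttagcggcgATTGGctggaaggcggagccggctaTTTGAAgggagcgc
Cdk1: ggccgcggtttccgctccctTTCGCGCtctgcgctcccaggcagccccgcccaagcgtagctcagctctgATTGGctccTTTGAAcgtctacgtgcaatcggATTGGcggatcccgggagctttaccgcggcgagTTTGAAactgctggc
Mki67: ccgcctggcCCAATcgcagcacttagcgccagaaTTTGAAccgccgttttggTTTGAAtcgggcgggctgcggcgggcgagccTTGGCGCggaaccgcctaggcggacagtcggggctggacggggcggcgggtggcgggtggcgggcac
Top2a: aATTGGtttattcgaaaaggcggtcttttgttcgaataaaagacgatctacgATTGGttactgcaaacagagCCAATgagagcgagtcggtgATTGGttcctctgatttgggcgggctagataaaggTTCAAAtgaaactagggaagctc
Cdc20: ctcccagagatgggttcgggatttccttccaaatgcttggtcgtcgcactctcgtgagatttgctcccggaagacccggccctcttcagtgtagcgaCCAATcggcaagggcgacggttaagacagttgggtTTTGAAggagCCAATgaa
These stretches lie at Mcm5 chr8:75109359-75109508 (+ strand), Asf1b chr8:83955544-83955693 (+ strand), Cdk1 chr10:69352913-69353062 (- strand), Mki67 chr7:135716380-135716529 (- strand), Top2a chr11:99024190-99024339 (- strand) and Cdc20 chr4:118437344-118437493 (- strand). The Cdk1 and Mki67 stretches each hold all 3 kinds of motif, with CHR elements that begin 71 and 15 bases before the Cdk1 start and 116 and 98 bases before the Mki67 start. In Asf1b, Top2a and Cdc20 a CHR element lies within 14 to 23 bases of the start, downstream of at least 1 CCAAT box. The Mcm5 stretch holds an E2F-type motif and CCAAT boxes but no CHR element in this window. No motif of these 3 kinds lies in the same window of Birc5, Tk1, Tacc3 or Tuba1b, although all 4 were among the genes with higher means.

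Replication licensing loads the MCM helicase on origins before DNA synthesis. The licensing list is not limited to genes that load the helicase. Of its 16 members compared, 15 were at least 2-fold higher in dividing cells (median log2 ratio of mean TPM + 1, 2.75). Mcm5, a subunit of that helicase (chr8:75109569-75128439, mm10), ranged from 0 to 1318 TPM in dividing cells, with a median of 461.3, and from 0 to 1297 in Tregs, with a median of 0. The ranges overlapped fully, but the shares of cells did not: Mcm5 was detected in 88.6% of dividing cells (73.3% to 96.8%) and 12.2% of Tregs (6.82% to 19.6%). Such a gap between shares was common among the 5301 genes compared in all cells. For 2772 of them the dividing interval lay wholly above the Treg interval, and for 45 wholly below. The gap is therefore not particular to Mcm5. The mean of Mcm5 was 495 ± 345 TPM (SD over 35 cells) against 56.2 ± 197 (115 cells). This 8.82-fold ratio was 6.66, 14.6 and 7.71 in the Ins blocks. In cells with 2500 or more genes Mcm5 kept the 2-fold difference, but its ratio was smaller. Some of the 19 Tregs there held it at high levels, among them cells at 1297, 781 and 640 TPM. Mcm2 had means of 392 TPM in dividing cells and 51.1 in Tregs. Gmnn, whose protein geminin blocks a second round of licensing, was detected in 77.1% of dividing cells and 1.74% of Tregs, with means of 397 and 13.3 TPM. Cdc6, the licensing factor that recruits the helicase, was listed at 0 in every Treg (0 of 115, which allows a share of up to 2.61%) and detected in 54.3% of dividing cells. Gins4 was the member short of the fold (79.1 against 54.1 TPM).

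The size of the replication difference depended on which cells of both classes were compared. The ranges of 2500 or more and of 2500 to 3500 genes held the same 19 Tregs, with 33 and 12 dividing cells. In cells with 2500 or more genes, 10 of 16 licensing genes stayed past 2-fold (median 1.57), and in the range of 2500 to 3500 genes 7 of 14 did (median 0.96, 22.8% of all genes higher). Mcm7 fell short at 408 against 223 TPM and Mcm3 at 494 against 252. Among the 19 Tregs with 2500 or more genes, 5 held at least 10 of 48 replication genes at 10 TPM. A single one of them, a cell with 2551 genes detected, held 29 of the 48. Without that cell, 13 of 16 licensing genes were higher (median 2.08), and Mcm7 (2.08-fold) and Mcm3 (2.44-fold) passed. That cell was left out after its values were seen.

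Replication fork genes copy the DNA, and 25 of 29 were higher (median 2.52), with 23 of 29 in cells with 2500 or more genes (median 1.60, or 2.48 without the Treg just described). Pcna, the sliding clamp of DNA polymerases, ranged from 0 to 3046 TPM in dividing cells (median 582) and from 0 to 1329 in Tregs (median 0), with means of 718 ± 703 and 165 ± 352. Tipin, part of the fork protection complex, was detected in 88.6% and 11.3% of cells, and Asf1b, a chaperone that hands histones to new DNA, in 77.1% and 4.35%. Asf1b means were 480 and 19.1 TPM, and its ratio stayed at 7.02 in cells with 2500 or more genes. The 4 members that did not reach 2-fold were Pola2, Rfc1, Rpa1 and Rpa2.

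Enzymes of nucleotide synthesis were higher for 18 of 23 members (median 2.09), and this list changed little in cells with 2500 or more genes (16 of 23, median 2.01). Rrm2, the S-phase subunit of ribonucleotide reductase (chr12:24708241-24714146), ranged from 0 to 2411 TPM in dividing cells with a median of 446.8. In Tregs it was above 1 TPM in 1 of 115 cells, at 451.2 TPM, so its ratio of means rests on that cell. Detection was 82.9% (66.3% to 93.4%) against 0.87% (0.022% to 4.75%). Tk1, which salvages thymidine, had means of 416 and 40.7 TPM, and Rrm1, the partner subunit of the reductase, 236 and 23.5. Tyms, which makes thymidylate, shows what the detection threshold does: 91.4% of dividing cells and 71.3% of Tregs passed 1 TPM, but 77.1% and 20.9% passed 10 TPM, and the means were 117 and 13.2. Low values between 1 and 10 TPM were common for some genes in Tregs, so shares at 10 TPM are used for counts per cell.

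Regulators of the G1 to S step were split. Of 13 cyclin, E2F and pocket protein genes, 8 were higher (median 1.45), among them Ccne1, the S-phase cyclin E (74.1 against 1.66 TPM), and Cdk4, partner of the D cyclins (522 against 190). With 2500 or more genes 7 of 13 were higher and 1 lower, and in the range of 2500 to 3500 genes 3 of 9 were higher (median 0.24, 22.8% of all genes). Cdk4 did not reach the fold in either (1.78 and 1.18). The D cyclins themselves did not reach the fold in all cells: Ccnd2 had 74.8 against 101 TPM and Ccnd3 526 against 333. Mybl2, which joins the mitotic gene programme, was detected in 31.4% of dividing cells and listed at 0 in all 115 Tregs. Of 3 CDK inhibitors compared, Cdkn1b, the quiescence inhibitor p27, was 2.63-fold lower (13.4 against 35.4 TPM) although it was detected in 68.6% of dividing cells and 58.3% of Tregs. Cdkn1a, which encodes p21, and Cdkn2d stayed within 2-fold, Cdkn2d with a log2 ratio of 0.82 towards dividing cells. In the range of 2500 to 3500 genes Cdkn2d was past the fold (1.54), and the other 2 inhibitors were lower.

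Mitotic genes had larger median ratios than replication genes in all cells and in cells with 2500 or more genes, but not on mean log2(TPM + 1), where licensing had a median of 4.34 and the spindle list 2.97, beside 1.31 for all genes. Of 24 mitotic kinase, cyclin and checkpoint genes 23 were higher (median 4.36), of 31 spindle and cytokinesis genes 31 (median 5.05), and of 21 kinetochore genes 21 (median 3.35). With 2500 or more genes the counts were 22 of 24, 29 of 30 and 19 of 20 (medians 5.82, 4.81 and 5.03). Bub3 was the checkpoint gene that missed the fold (295 against 214 TPM).

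Stmn1, which encodes the microtubule-destabilising protein stathmin (chr4:134468320-134473843), separated the classes most on the log scale among genes that kept the fold in all cells, in cells with 2500 or more genes and in each block. It ranged from 0 to 2334 TPM in dividing cells (median 840) and from 0 to 1159 in Tregs (median 0). All but 1 dividing cell held it (97.1%, 85.1% to 99.9%), against 7 of 115 Tregs (6.09%, 2.48% to 12.1%). The means were 990 ± 601 and 29.0 ± 152 TPM, and the ratio was 11.9 in cells with 2500 or more genes, 11.3 in the narrower range, and 23.7, 55.7 and 33.4 in the blocks. Tuba1b and Tubb5, tubulins of the spindle, had means of 3462 and 3150 TPM in dividing cells and 281 and 610 in Tregs. Tubulin genes have near-identical relatives, among which reads can be shared, so their split is uncertain.

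Birc5, which encodes survivin of the chromosomal passenger complex, had 798 ± 910 TPM in dividing cells. In Tregs its highest value was 8.15 TPM and its mean 0.976, so it was found in 71.4% of dividing cells and in 0 of 115 Tregs at 10 TPM (up to 2.61%), but in 77.1% and 34.8% at 1 TPM. Tacc3, which stabilises kinetochore fibres, was at 1 TPM or more in 80.0% of dividing cells (63.1% to 91.6%) and in 0 of 115 Tregs, which allows up to 2.61%. Nusap1 and Plk1, a microtubule-bundling protein and the Polo kinase, were listed at 0 in every Treg and detected in 54.3% and 40.0% of dividing cells. Ccnb1, the mitotic cyclin B, was sparser: 40.0% of dividing cells held it, with a median of 0, a highest value of 1504 TPM and a mean of 206 ± 385, against 12.7 ± 95.1 in Tregs. Cdk1, its kinase partner, was detected in 71.4% and 3.48%, with means of 163 and 3.90 TPM, and with 2500 or more genes 1 of 19 Tregs held it, so the ratio of 17.4 there rests on that cell. Cdc20, which activates the anaphase-promoting complex, had 62.9% and 1.74%.

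Mki67 and Top2a, common marks of cycling cells, were less complete than Stmn1. Mki67 ranged from 0 to 296 TPM in dividing cells (median 26.9) and from 0 to 271 in Tregs (median 0), with means of 38.7 ± 55.7 and 3.70 ± 26.8, and it was detected in 65.7% (47.8% to 80.9%) and 5.22% (1.94% to 11.0%). In the range of 2500 to 3500 genes its ratio was 1.73, short of the fold. Top2a, the topoisomerase that untangles sister chromatids, had 131 ± 129 and 7.58 ± 36.6 TPM. At 10 TPM, 27 of 35 dividing cells and 11 of 115 Tregs held Mki67 or Top2a. Of the chromatin proteins of dividing cells, H2afz, the histone variant H2A.Z, had 5190 and 1297 TPM, Hmgn2 2503 and 478, and Hmgb2 804 and 91.0. Each of these was detected in 100% of dividing cells. Of the list of condensin, topoisomerase and chromatin genes, which includes Mki67 and Top2a, 16 of 17 members were higher (median 2.79).

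**Figure D2:**
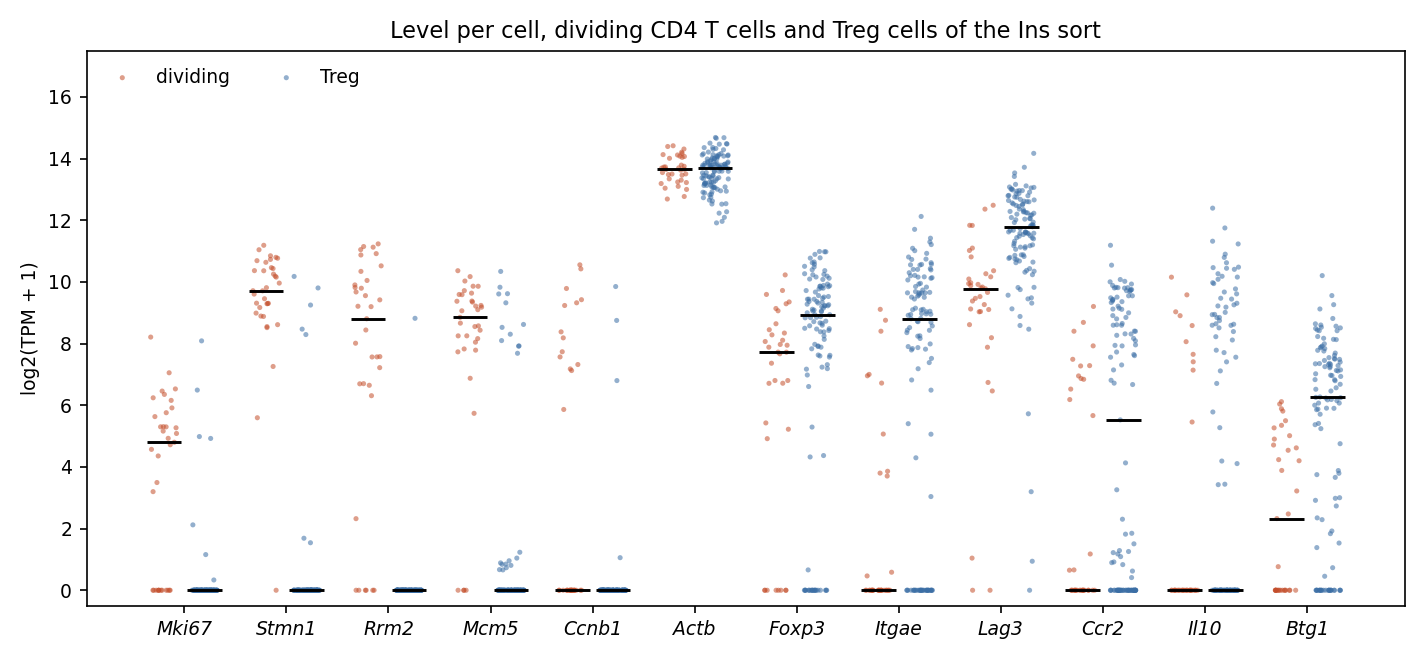
Level of 12 genes in each of 35 dividing cells (orange) and 115 Treg cells (blue), as log2(TPM + 1), with a black bar at the median. Stmn1, Rrm2 and Mcm5 sit high in most dividing cells and at 0 in most Tregs, Ccnb1 is at 0 in most cells of both classes, Actb lies at the same height in both, and Foxp3, Itgae, Lag3, Ccr2, Il10 and Btg1 have lower means in dividing cells.

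Cells of the dividing class differed among themselves in the balance of replication and mitotic transcripts. Of 48 replication genes, licensing and fork together, dividing cells held between 7 and 42 at 10 TPM, with a median of 30, and Tregs between 0 and 29, with a median of 3. Of 90 mitotic genes, dividing cells held between 7 and 72, with a median of 41, and Tregs between 0 and 12, with a median of 3. At least 10 of each were present in 32 of 35 dividing cells, while 2 had fewer than 10 mitotic genes and 1 fewer than 10 replication genes. Across the 35 dividing cells the numbers of replication and mitotic genes had a Pearson r of 0.05 and a Spearman rho of 0.03, as a description of cells from 1 sort that share gene number. Replication genes followed the number of genes detected (r = 0.56) more than mitotic genes did (r = 0.20). Among Tregs, 7 held at least 10 replication genes and 1 at least 10 mitotic genes. In the Ins blocks the medians were 30, 30.5 and 28 replication genes and 42, 31.5 and 44 mitotic genes in dividing cells. With the range of 2500 to 3500 genes, the 12 dividing cells had medians of 22.5 and 39, and the 19 Tregs of 6 and 5.

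**Figure D3:**
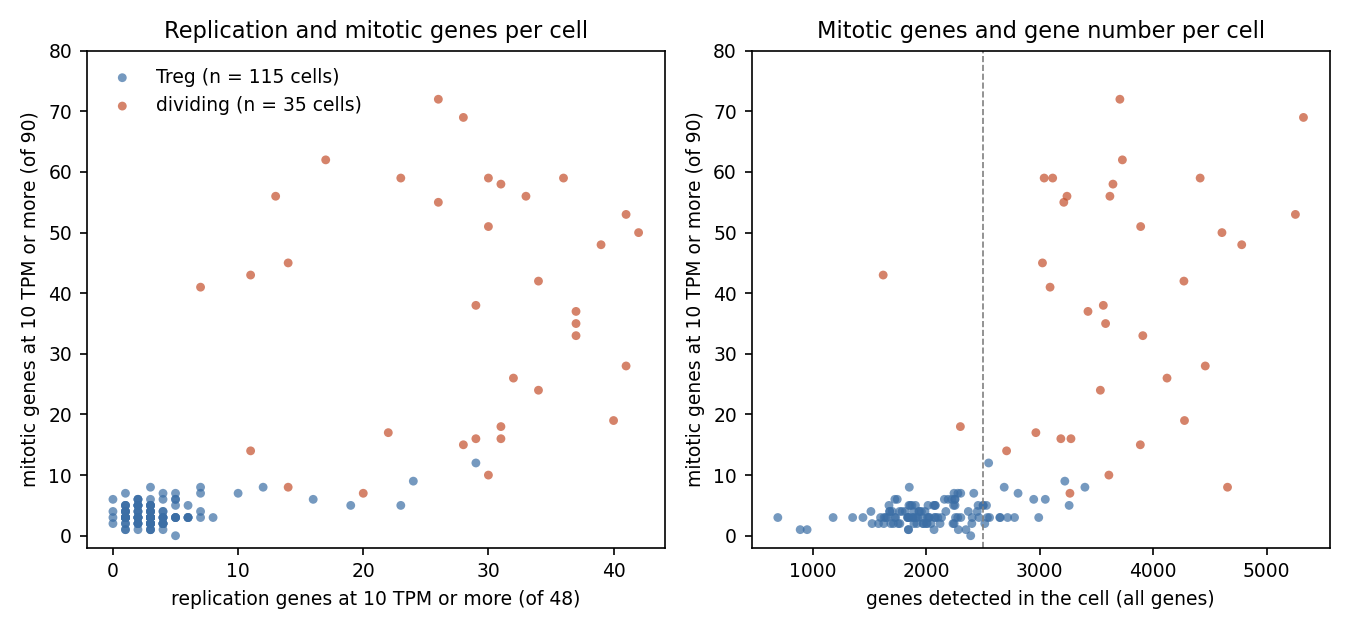
Each point is a cell, 35 dividing (orange) and 115 Treg (blue). On the left, the number of 48 replication genes (horizontal) and of 90 mitotic genes (vertical) at 10 TPM or more, on the right the number of all genes detected (horizontal, dashed line at 2500) against mitotic genes. Tregs stay at 12 mitotic genes or fewer at any gene number, while dividing cells spread from 7 to 72 with no clear relation to replication genes.

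At the level of single genes, Mcm5 was found at 10 TPM in 31 dividing cells and Ccnb1 in 14, and 12 held both. Foxp3 was found in 27 of all 35 dividing cells, with or without proliferation genes. Of 22 dividing cells with Mki67, 18 held Foxp3, while 9 held Foxp3 without Mki67 and 4 held neither. Of 26 with Top2a, 20 held Foxp3, while 7 held Foxp3 without Top2a and 2 held neither. Of the 4 Tregs with Mki67 all 4 held Foxp3, and of the 8 with Top2a 7 did, beside 94 of all 115 Tregs.

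Outside the division lists, 658 genes were at least 2-fold higher. The 10 named for the largest difference of mean log2(TPM + 1), among those that kept the fold in all cells, in cells with 2500 or more genes and in each block, were Hist1h2ao, Banf1, Rbbp7, Tcf19, Anapc5, Snrpd1, Pmf1, Anp32e, Tagln2 and Lsm3. Several of them encode proteins of cell division or RNA processing. Hist1h2ao, a replication-dependent histone H2A gene, was detected in 77.1% of dividing cells and 1.74% of Tregs (3283 ± 5107 and 25.7 ± 197 TPM, median 226 and 0). It belongs to a cluster of near-identical histone genes, so its value is uncertain. Banf1, which helps rebuild the nuclear envelope after mitosis, was found in 97.1% and 26.1% of cells (676 and 173 TPM), and Pmf1, a kinetochore protein, in 74.3% and 5.22%. Rbbp7, a histone-binding subunit of chromatin complexes, had 392 and 97.0 TPM, and Anapc5, of the anaphase-promoting complex, 281 and 74.9. Snrpd1 and Lsm3, core proteins of spliceosomal particles, had ratios of 3.71 and 5.27. Tagln2, an actin-binding protein, had the smallest ratio of the 10 (2.82, with 998 against 353 TPM).

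DNA methylation and Polycomb genes were higher for 7 of 10 members (median 1.96), among them Uhrf1, which guides maintenance methylation to new DNA (169 against 10.4 TPM), and the maintenance methyltransferase Dnmt1 (96.0 against 24.7). Dnmt1 fell under the fold in cells with 2500 or more genes (1.74). Tet2, which oxidises methylcytosine, was 2.15-fold lower in mean at low levels (4.63 against 9.94 TPM). It was within 2-fold in cells with 2500 or more genes. On mean log2(TPM + 1) it stood at 0.43, beside a median of 1.31 for all genes. DNA repair genes were higher for 11 of 15 (median 1.80). Both lists stand beside 15.4% of all genes higher. With 2500 or more genes 10 of 15 repair and 6 of 10 methylation and Polycomb genes were higher, beside 20.6% of all genes. In the range of 2500 to 3500 genes 6 of 11 and 4 of 9 were, beside 22.8%.

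Genes of biosynthesis were higher by less. Nucleolar and ribosome assembly genes reached the fold for 12 of 19 members (median 1.07), among them Ncl, the nucleolar protein nucleolin (160 against 77.7 TPM), and splicing factors for 10 of 24 (median 0.86). Chaperonin and proteasome genes did so for 5 of 26 (median 0.59), respiratory chain genes for 6 of 28 (median 0.63), glycolysis genes for 2 of 12 (median 0.35) and TCA cycle genes for 1 of 16 (median 0.39). Beside the 15.4% of all genes, the shares of chaperonin, respiratory and glycolysis genes were near the background and that of TCA genes below it. No member of these 4 lists was at least 2-fold lower in all cells. Gapdh, a glycolytic enzyme, had 4298 ± 1267 TPM in dividing cells and 2269 ± 1780 in Tregs, and 4424 against 3313 in cells with 2500 or more genes. It was listed at 0 in some Tregs only, with detection at 100% and 91.3%. Actb was level, with 13459 ± 4120 and 13035 ± 4968 TPM. Myc, a driver of growth, was detected in 25.7% of dividing cells and 4.35% of Tregs (83.1 against 17.6 TPM), but its ratio was 18.6, 1.15 and 0 in the 3 blocks, so the higher mean rests on the first block.

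**Figure D4:**
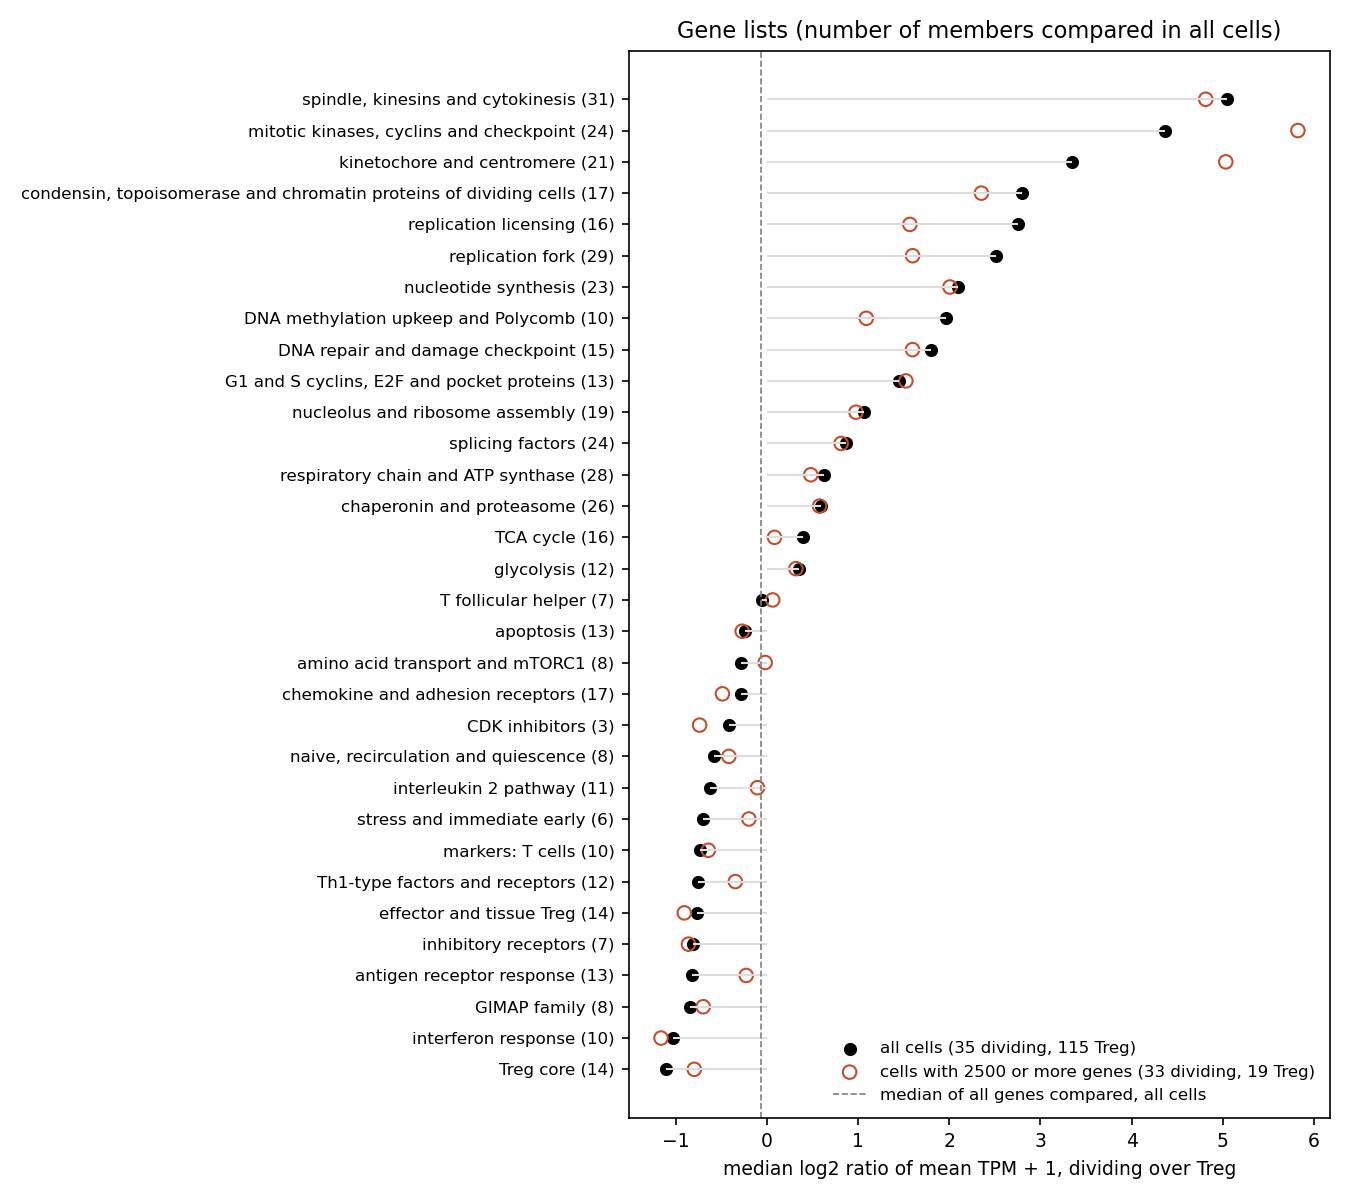
Median log2 ratio of mean TPM + 1, dividing over Treg, for each gene list, with the number of members compared in parentheses. Black points are all cells, open orange circles cells with 2500 or more genes, and the dashed line is the median of all 5301 genes (-0.06). Spindle, mitotic kinase and kinetochore lists lie highest in both sets of cells, replication lists move towards 0 in cells with 2500 or more genes, and the Treg core list is lowest in all cells.

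On the lower side were Treg identity genes. The class compared against is named for Tregs, so these counts describe its name and are no finding about the cells. Of 14 Treg core genes compared, 9 were at least 2-fold lower in dividing cells and none higher (median -1.10), beside 15.2% of all genes lower. In cells with 2500 or more genes 5 of 15 were lower (median -0.79, 16.1% of all genes), and in the range of 2500 to 3500 genes 11 of 15 (median -1.28, 20.2% of all genes). On mean log2(TPM + 1) the median was -0.08 beside 1.31 for all genes. Of 10 T cell markers, Cd3g and Cd4 were at least 2-fold lower and none higher (median -0.74, and -0.17 on mean log2(TPM + 1)), near the share of all genes, and 1 of 10 was lower with 2500 or more genes. The summed level of the 10 was 0.408% to 1.29% of TPM in dividing cells (median 0.796%) and 0.404% to 2.54% in Tregs (median 1.51%). Cd3g, a chain of the receptor complex, had 1847 against 3930 TPM while being detected in 100% of both classes. How far the lower Treg genes follow from the larger share of TPM on other genes was not tested.

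Foxp3 itself (chrX:7573644-7595245) ranged from 0 to 1199 TPM in dividing cells (median 210) and from 0 to 2032 in Tregs (median 490). The classes overlapped over most of their range, and the means of 262 ± 286 and 580 ± 525 TPM differed by less than the SD among Tregs. The level was 2.21-fold lower in dividing cells, and 1.87-fold lower in cells with 2500 or more genes. Ikzf2, which encodes Helios, was lower in mean (22.0 against 49.0 TPM). It was detected in a larger share of dividing cells (77.1%, 59.9% to 89.6%) than of Tregs (59.1%, 49.6% to 68.2%), as were 4853 of the 5301 genes. On mean log2(TPM + 1) Ikzf2 stood at 0.25, beside a median of 1.31 for all genes. Ctla4, an inhibitory receptor of Tregs, was within 2-fold (491 against 858 TPM, with 88.6% and 78.3% of cells), as was Il2ra, the interleukin 2 receptor chain (37.6 against 34.9 TPM). Tnfrsf18, the receptor GITR, had 1096 against 2337 TPM and Folr4, folate receptor 4, 862 against 2039, both with wide overlap and high detection in both classes.

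Itgae departed from that pattern, because it was listed at 0 in most dividing cells, where a value of 0 can also be a missed transcript. Itgae encodes the CD103 integrin chain that binds E-cadherin on epithelium (chr11:73090583-73147446), and it ranged from 0 to 552 TPM in dividing cells, with a median of 0, and from 0 to 4467 in Tregs, with a median of 447.2. It was detected in 10 of 35 dividing cells (28.6%, 14.6% to 46.3%) and 84 of 115 Tregs (73.0%, 64.0% to 80.9%). The means were 50.0 ± 129 and 659 ± 778 TPM, 13.2-fold lower in dividing cells, and the dividing to Treg ratio was 0.0505, 0.167 and 0.0228 in the Ins blocks. With 2500 or more genes 30.3% of dividing cells and 78.9% of Tregs held it, with 9.35-fold lower means, and in the range of 2500 to 3500 genes the means were 4.76-fold lower. Restricted to cells with Foxp3 detected, 27 dividing cells and 94 Tregs, the means were 10.0-fold lower. All 10 dividing cells with Itgae at 10 TPM also held Foxp3, and 17 held Foxp3 without Itgae. Among Tregs 69 held both and 25 Foxp3 alone. Itgae was rarer still in activated (4.00%) and T follicular helper cells (4.92%) of the sort.

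With both classes restricted to cells in which Foxp3 was detected, the counts stayed close to those of all cells. Of 5396 genes, 904 (16.8%) were higher and 769 (14.3%) lower, 692 and 586 of them shared with the comparison of all cells. The spindle median was 5.14 and the licensing median 2.66, and the Treg core median -0.93. Lag3 was 3.00-fold, Ccr2 3.15-fold and Il10 3.26-fold lower among these cells.

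Effector and tissue Treg genes were lower for 6 of 14 members and higher for none, beside 15.2% of all genes lower (median -0.76). On mean log2(TPM + 1) their median was 0.29, beside 1.31 for all genes. Il10, the suppressive cytokine, was detected in 28.6% of dividing cells (14.6% to 46.3%) and 45.2% of Tregs (35.9% to 54.8%), with medians of 0 in both and highest values of 1140 and 5384 TPM. Its means of 117 ± 255 and 386 ± 770 TPM gave ratios of 0.232, 0.477 and 0.245 in the blocks, and the intervals of the shares overlapped. The shares were 27.3% and 68.4% with 2500 or more genes. Other members past the fold were Tnfrsf4, the receptor OX40 (1140 against 2548 TPM), Tnfrsf1b, the TNF receptor TNFR2 (147 against 446.8), the transcription factor Maf (38.5 against 95.4), the chemokine receptor Ccr8 (229 against 643) and Tigit.

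Inhibitory receptors were lower for 3 of 7, beside 15.2% of all genes (median -0.80). On mean log2(TPM + 1) their median was 0.37, beside 1.31 for all genes. Lag3, which dampens T cell activation through MHC class II (chr6:124904361-124911705), ranged from 0 to 5744 TPM in dividing cells (median 878) and from 0 to 18455 in Tregs (median 3545). Nearly all cells of both classes held it (94.3% and 98.3%), so the difference lay in the level, at 1216 ± 1372 against 4215 ± 3090 TPM. The ratio was 0.280, 0.353 and 0.212 in the blocks and 0.268 in cells with 2500 or more genes. Tigit had 2236 against 5105 TPM and Pdcd1, the receptor PD-1, was level at 357 against 370.

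The 10 genes lowest in dividing cells by the naming rule were Itgae, Btg1, Lag3, Malat1, Tcp11l2, Zfp36l1, Arl5a, Pld3, Grina and Ccr2. Btg1, an antiproliferative factor linked to T cell quiescence (chr10:96617006-96622809), ranged from 0 to 68.4 TPM in dividing cells (median 4.01) and from 0 to 1180 in Tregs (median 75.5), with means of 16.2 ± 21.4 and 134 ± 174. Its 8.26-fold lower mean was 5.51-fold in cells with 2500 or more genes, and the block ratios were 0.101, 0.139 and 0.133. Btg2, a relative of Btg1, and Tsc22d3, a glucocorticoid-induced leucine zipper protein, were at least 2-fold lower in mean too. With Btg1 they were the 3 of 8 compared genes of the naive and quiescence list past the fold (median -0.58). On mean log2(TPM + 1) Btg2 stood at 0.55 and the list median at 0.70, beside 1.31 for all genes. Of that list Ccr7, Klf2 and Il7r were detected in under 25% of both classes and not compared. Zfp36l1, an RNA-binding protein that speeds mRNA decay, had 70.5 against 297 TPM, and Malat1, a nuclear long noncoding RNA, 227 ± 186 against 1062 ± 845 with detection at 100% and 99.1%. In the range of 2500 to 3500 genes Malat1 (1.98-fold lower) and Arl5a (1.75-fold) no longer reached the fold. Tcp11l2 was rare in dividing cells (5.71%, against 33.0% of Tregs).

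Some receptors for tissue chemokines were lower. Ccr2, the receptor for monocyte chemoattractant chemokines (chr9:124101950-124113557), ranged from 0 to 589 TPM in dividing cells (median 0) and from 0 to 2335 in Tregs (median 45.1), with means of 75.3 ± 136 and 296 ± 405 and detection at 40.0% and 60.0%. Cxcr6, a receptor of tissue-resident T cells, was lower too (213 against 720 TPM). Of 17 chemokine and adhesion genes 5 were lower and 2 higher (median -0.29), beside 15.2% and 15.4% of all genes. With 2500 or more genes 4 were lower and 1 higher. On mean log2(TPM + 1) the list median was 1.03, beside 1.31 for all genes. Cxcr6 came to a ratio of 0.597 in cells with 2500 or more genes, short of the fold. Cxcr3, a receptor of type 1 T cells, was found in 94.3% of dividing cells (80.8% to 99.3%) and 61.7% of Tregs (52.2% to 70.6%), with means of 599 against 730 TPM. A larger share in dividing cells was shared by 4853 of the 5301 genes. The Cxcr3 shares were 97.0% and 78.9% with 2500 or more genes.

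Type 1 genes were mixed: of 12 compared, 4 were lower and Runx3 higher (median -0.76), beside 15.2% of all genes lower and 15.4% higher. On mean log2(TPM + 1) their median was 0.25, beside 1.31 for all genes. With 2500 or more genes 2 of 12 were lower, near the 16.1% of all genes. Runx3, a transcription factor of type 1 and cytotoxic cells, had 34.8 against 15.0 TPM with ratios of 2.14, 2.45 and 2.77 in the blocks. Tbx21, which encodes T-bet, had the lower mean (79.5 against 171 TPM) and the larger share of cells (51.4% against 27.8%), and it was level in cells with 2500 or more genes (83.6 against 89.2). Ccl5, a chemokine, was 9.82-fold lower (197 ± 601 against 1931 ± 4358 TPM), with single Tregs at up to 24358 TPM and a median of 0 in both classes. It was 4.36-fold lower with 2500 or more genes and 3.19-fold lower in the range of 2500 to 3500 genes. Of 7 T follicular helper genes compared, Tcf7 was higher and Tox2 lower, shares near those of all genes, and Tox2 turned to 0.43 on mean log2(TPM + 1) and to 0.08 with 2500 or more genes. Tcf7, the factor TCF-1 that marks T cells with renewal capacity, was detected in 25.7% of dividing cells and 2.61% of Tregs, with 100 ± 221 against 8.96 ± 58.2 TPM, and at 24.2% and 10.5% in cells with 2500 or more genes, where it did not pass the filter on detection. Cxcr5, the follicle-homing receptor, was found in 37.1% of dividing cells and 11.3% of Tregs (58.2 against 42.5 TPM), but with 2500 or more genes the shares were 39.4% and 31.6% and its mean was lower (61.8 against 142 TPM). Il21 was found in 5 of 35 and 3 of 115.

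Interferon response genes were lower for 5 of 10, beside 15.2% of all genes (median -1.03). Among the lower ones were Irf9, part of the interferon-activated factor ISGF3 (45.4 against 167 TPM), and Gbp2, a GTPase of cell defence (58.0 against 132). On mean log2(TPM + 1) the list median was 0.53, Irf9 stood at 0.005 and Gbp2 at 0.23, beside 1.31 for all genes. With 2500 or more genes 6 of 11 were lower, and in the range of 2500 to 3500 genes 1 of 10. GIMAP family genes, GTPases of lymphocyte survival, were lower for 3 of 8 (median -0.84, and 0.46 on mean log2(TPM + 1)), and for 1 of 8 in cells with 2500 or more genes, below the 16.1% of all genes. Antigen receptor response genes were lower for 4 of 13, apoptosis genes for 4 of 13, amino acid transport genes for 2 of 8, interleukin 2 pathway genes for 1 of 11 and stress and immediate early genes for 1 of 6, beside 15.2% of all genes. Of these lists only the antigen receptor list held a member that was higher, Myc.

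Markers of other cells were scarce in both classes. Of 8 myeloid and dendritic markers in the table, 1 passed the detection filter, Cst3, a protease inhibitor also made by T cells, at 645 against 1741 TPM, and the summed level of the 8 reached at most 0.239% of TPM in a dividing cell and 0.944% in a Treg. Lyz2, C1qb and Fcer1g, which define myeloid cells, were at 0 in all 150 cells, and so was the B cell gene Ms4a1. Of 11 B lineage markers, Xbp1 and Prdm1 passed, both within 2-fold, and the summed level was at most 0.0825% and 0.184% of TPM. Of 13 islet and acinar markers none passed in all cells. Ins2, the insulin gene, was found in 22.9% of dividing cells and 13.0% of Tregs, with 40.1 ± 81.9 and 155 ± 580 TPM, and it passed with 2500 or more genes (42.5 against 353 TPM). The summed islet and acinar level reached 0.109% in dividing cells and 2.90% in Tregs. Of 8 CD8, NK and innate lymphocyte markers, Cd8b1 passed and was within 2-fold. Of 4 endothelial, stromal and red cell markers none passed, but Pecam1 was detected in 5 of 35 dividing cells and 0 of 115 Tregs (up to 2.61%). The part of these transcripts in the differences was not tested, and a pair of cells sorted as one was not looked for.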

How the data were processed

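Single cells were profiled with SMART-Seq2. The submitters' processing notes list TopHat, Bowtie, RSEM 1.2.8 and mm10 but not which step used which, and filters applied earlier were not given. The authors deposited natural log values for 13561 genes in 441 cells. Taking exp(value) minus 1 gave a sum of 100000 per cell, so TPM was computed as 10 times that quantity. The plan had assumed linear TPM. Depth per cell is unknown. Class names and gene numbers came from the authors' deposited annotation, and both matched the labels and values in 441 of 441 cells. No doublet caller was run.

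A gene was compared if detected at 1 TPM in at least 25% of cells of either class, and called at a 2-fold ratio of mean TPM. List medians use mean TPM + 1. Shares have 95% Clopper-Pearson intervals (exact), and for a share of 0 the limit is 3 cells over the number of cells. Both cover counting error only. Of 666 list symbols in 37 lists, 647 were in the table. The members and lists were chosen with earlier results of these data known. Named genes kept the fold in all cells, in cells with 2500 or more genes and in each of the 3 Ins blocks, ranked by the difference of mean log2(TPM + 1), without receptor segments, unnamed gene models, ribosomal protein and mitochondrial genes: 10 higher on division lists, 10 higher elsewhere and 10 lower, plus core genes, markers and up to 4 members of each list. Genes named beyond this rule were chosen after their values were seen. Gene coordinates are from the GENCODE annotation of mm10 and promoters from RefSeq. The comparison was run on simulated data, made from Treg values with planted changes larger than 2-fold. Gene number was not made to differ between the simulated classes, so that run checks the code and not the calls here. Python 3.11.15, numpy 2.4.6, pandas 2.3.3, scipy 1.17.1 and matplotlib 3.10.9 were used. Alternatives were other detection filters, scales, gene number ranges, Foxp3-detected cells, leaving out or weighting blocks, and TPM without Rn45s and ribosomal protein genes.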

Additional observations from a re-analysis of the deposited data

How the results depend on the processing

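The counts of 815 higher (15.4% of genes compared) and 808 lower genes (15.2%) depended most on the scale and the detection filter. On mean log2(TPM + 1) they were 3296 (62.2%) and 69 (1.30%), and on mean log2(TPM + 10) 1559 (29.4%) and 38 (0.717%). With genes detected in 10% of either class they were 1356 (16.6%) and 1741 (21.4%), and with no filter 2402 (19.5%) and 3961 (32.2%). Cells with 2500 to 3500 genes gave 1242 higher genes (22.8%), and a detection threshold of 10 TPM left 10.8% of 4419 genes lower. Within single Ins blocks, the counts were 1141 to 1535 higher and 1015 to 1092 lower. In the other settings followed here they stayed within 1.5 times: without each Ins block in turn, 930 to 957 higher and 813 to 943 lower, and without Rn45s and ribosomal protein genes 879 and 736. Leaving out 1 Treg cell from those with 2500 or more genes, chosen after seeing the data, gave 1196 and 875.

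Of 190 genes followed through the settings, 10 that passed the fold changed the sign of their value in at least 1 setting. On mean log2(TPM + 1) the values were 0.55 for Btg2, 0.20 for Cd27, 0.23 for Gbp2, 0.25 for Ikzf2, 0.005 for Irf9, 0.95 for Tbx21, 0.43 for Tet2, 0.43 for Tox2 and 0.85 for Zbp1. On mean log2(TPM + 10) they were 0.071 for Btg2, 0.28 for Tbx21, 0.080 for Tet2, 0.044 for Tox2 and 0.27 for Zbp1. The median of all genes was 1.31 on mean log2(TPM + 1) and 0.60 on mean log2(TPM + 10). All these values thus lay below the median gene of their scale. In cells with 2500 to 3500 genes the log2 ratios were -1.60 for Myc and 0.17 for Tbx21. With 2500 or more genes Tox2 stood at 0.080, and leaving out 1 Treg cell there gave 0.16 for Tbx21 and 0.006 for Tox2. Without the first Ins block Myc stood at -0.90. The cause was not tested.

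No paired analysis was possible because cells carry no number that ties a cell of one class to a cell of the other. Depth is unknown, each class is 1 sample, and the classes were cut from these values, so the differences have no replicate check.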
